A study of Danio rerio with 9 samples.

Results

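The genes described here are 9 *her* and *hes* genes of the zebrafish segmentation clock: *her1*, *her7*, *hes6*, *her11*, *her12*, *her2*, *her15.1*, *her4.1* and *her6*. They were chosen by name, and each name matched exactly 1 of the 31956 named entries of the gene count table. RNA was sequenced from tailbuds of 3 kinds of heat-shocked embryos, with 3 samples of each. Tg(*hsp70l:tbx16*) embryos carry the T-box factor *tbx16*, and tg(*hsp70l:msgn1*) embryos carry the bHLH factor *msgn1*, each under the *hsp70l* heat-shock promoter, which acts in all tissues rather than in the tailbud alone. The labels call these genotypes hsp70::tbx16 and hsp70::msgn1, and they are called the *tbx16* line and the *msgn1* line below. Wild-type embryos carried neither transgene and were heat-shocked in the same way. Embryos of all 3 genotypes were heat-shocked for 30 min at the 2-3 somite stage and left for 3 h, and the tailbud was then cut off behind the last formed somite. The labels give the heat shock as 28 °C, while the methods of the study give a higher temperature. Each sample held 10 pooled tailbuds. The tg(*hsp70l:tbx16*) embryos came from homozygous fish crossed to wild type, whereas the wild-type tailbuds were non-transgenic siblings from the crosses of heterozygous tg(*hsp70l:msgn1*) fish, so for tg(*hsp70l:tbx16*) the transgene and the parents cannot be told apart. The question of the design was which genes respond to each factor in the tailbud, where cells of the posterior body become presomitic mesoderm.

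The segmentation clock is a negative feedback loop in the presomitic mesoderm. Hairy/Enhancer of split proteins, encoded by the *her* and *hes* genes, are bHLH repressors. Some of them, such as Her1 and Her7, switch off their own transcription, so that their RNA rises and falls once for each somite formed. Delta-Notch signalling between neighbouring cells keeps these oscillations in step, and T-box factors such as Tbx6 and Tbx16 act in the tissue where they run. Because tailbuds were pooled, each value below is an average over embryos and over cells at different phases of the cycle, and neither amplitude nor period can be read from it. In such bulk samples, fewer cells that express a gene and less RNA of it per cell cannot be told apart.

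The study's own RT-qPCR primers for *her1* and *her7* are shown because they lie in introns and so read nascent transcripts, whereas the gene counts used here do not separate nascent from mature RNA. No RT-qPCR value is used here. The sequences run 5′ to 3′, with no part marked in capitals.
her1 forward: tgcatgcctttccactctccctaac
her1 reverse: atggcatctggggtctcctt
her7 forward: cgggctgctttttgaagaca
her7 reverse: tgtcaactcttatgttttgtagcaacc
In the RefSeq annotation of assembly GRCz12tu, which lists all 9 genes, several of them are direct neighbours. No protein-coding gene lies between *her1* and *her7*, between *her2* and *her15.1*, or between *her15.1* and *her15.2*. The same holds for *her11* and *her5*, and for the run *her12*, *her4.2*, *her4.1* and *her4.3*.

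Counts summed to between 30750552 and 49654769 per sample, and 19914 genes passed the filter on low counts, all 9 clock genes among them. The raw count of a clock gene in a sample lay between 91 and 17637. The genes induced by design were found where the labels place them. *tbx16* stood at 836, 976 and 564 normalised counts (CPM, counts scaled to the library total) in the 3 *tbx16*-line samples, against 332 to 372 CPM in wild type. *msgn1* stood at 1909, 1428 and 1958 CPM in the *msgn1* line, against 701 to 889 CPM in wild type. These counts do not separate transgene from endogenous RNA. The tailbud genes *tbx6* and *tbxta* were present in the labelled tissue and averaged 945 and 315 CPM in wild type. The call for the induced *msgn1* (log2 fold change 1.19, edgeR adjusted p = 0.0262) was lost in 6 of the 9 fits that left out 1 sample, while that for *tbx16* was 1.15 (adjusted p = 0.00149).

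Levels are given in CPM with library sizes scaled by the trimmed mean of M-values (TMM), and values of 3 samples are listed in the order of replicates 1, 2 and 3. A log2 fold change is followed by its standard error, and adjusted p is the Benjamini-Hochberg value of edgeR's quasi-likelihood test over all 19914 genes, with 0.05 as the threshold. The p-values measure the spread between these samples. Both lines were compared with the same wild-type samples, so those comparisons are not independent of each other, and the 9 genes are not replicates of a condition.

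Among the 9 clock genes, 3 fell in the *tbx16* line relative to wild type: *her11*, *hes6* and *her7*. None passed the test as higher. Over all genes tested, 15.7% were called lower, 15.0% higher and 30.7% in either direction. The 3 were 33.3% of the 9, close to the 30.7% called in either direction among all genes. The median log2 fold change was -0.49 over the 9 genes and 0.03 over all genes. For the *msgn1* line against wild type these medians were 0.25 and -0.02, and between the lines -0.65 and 0.05. In the *msgn1* line none of the 9 passed the test against wild type, where 0.854% of all genes did (0.497% lower and 0.357% higher). DESeq2 called 0 of the 9 there, and 703 of all 31956 named entries. At an unadjusted edgeR p under 0.05, 3 of the 9 were higher. The share of all genes at that unadjusted threshold was not counted, here or for the gene lists below, so such counts cannot be read as an excess. The direct comparison of the lines called 7 of the 9 lower in the *tbx16* line than in the *msgn1* line, where 38.3% of all genes were called, 19.8% lower and 18.5% higher. All 7 kept this direction when libraries were scaled by size alone, but 3 of them, *her11*, *her12* and *hes6*, then still passed the test. With that scaling, 8272 of 19914 genes were called between the lines. That scaling also moved the share of lower genes among all called genes to 37%, against 51.1%, for the *tbx16* line against wild type, and to 23.4%, against 51.6%, between the lines.

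**Figure D1:**
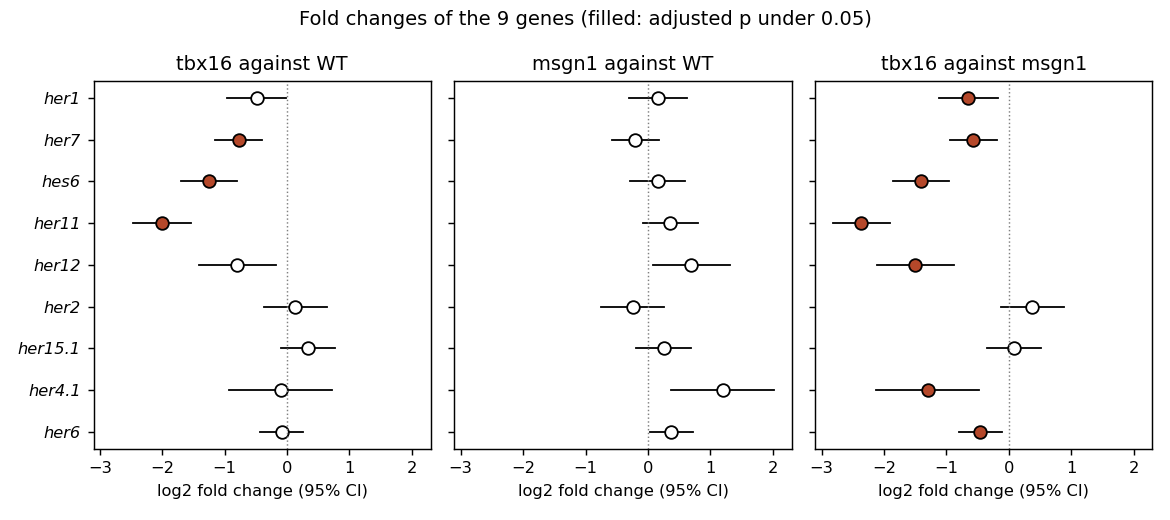
Log2 fold changes of the 9 clock genes in 3 comparisons, with 95% confidence intervals and filled points for an adjusted p under 0.05. Filled points number 3 for the *tbx16* line against wild type, 0 for the *msgn1* line against wild type and 7 between the lines, all to the left of 0, and 3 of those 7 pass the test with scaling by library size alone. Of all genes tested, 30.7%, 0.854% and 38.3% were called in these comparisons, in either direction. With library size alone, 8272 of 19914 genes were called between the lines.

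*her1* and *her7* encode the core repressors of the clock and lie next to each other in the genome. *her7* stood at 64.1, 84.7 and 66.0 CPM in the *tbx16* line, at 94.1, 135 and 90.7 CPM in the *msgn1* line, and at 115, 136 and 117 CPM in wild type. All 3 *tbx16*-line samples were below every other sample, while the *msgn1* line overlapped wild type. *her7* fell to 58.5% of the wild-type level in the *tbx16* line, a log2 fold change of -0.77 ± 0.17 (edgeR adjusted p = 0.00686). The log2 fold change in the *msgn1* line was -0.20, with a 95% interval of -0.58 to 0.17 (adjusted p = 0.628). Between the lines it was -0.57 ± 0.17 (adjusted p = 0.0227). That call held in 6 of the 9 fits that left out 1 sample. It was lost with scaling by library size alone (-0.26, edgeR adjusted p = 0.334). In order of level, the *tbx16* line came below the *msgn1* line and wild type, and the upper pair did not differ beyond their spread.

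*her1* showed a smaller difference with more spread. Its levels were 131, 156 and 190 CPM in the *tbx16* line, 227, 325 and 194 CPM in the *msgn1* line and 234, 255 and 179 CPM in wild type. The highest *tbx16*-line sample lay above the lowest wild-type sample but below every *msgn1*-line sample. Against wild type the log2 fold change was -0.49 ± 0.21 in the *tbx16* line, which missed the threshold (adjusted p = 0.106), and 0.16 ± 0.21 in the *msgn1* line (adjusted p = 0.778). *her1* was lower in the *tbx16* line than in the *msgn1* line by a log2 fold change of -0.65 ± 0.21 (adjusted p = 0.0344). That call was lost in 4 of the 9 fits that left out 1 sample, with fold changes between -0.80 and -0.41, and with scaling by library size alone (-0.34, adjusted p = 0.257).

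The ratio of *her7* to *her1* counts within a sample does not depend on how libraries are scaled. It was 0.491, 0.543 and 0.348 in the *tbx16* line, 0.414, 0.415 and 0.468 in the *msgn1* line and 0.493, 0.531 and 0.653 in wild type. All 3 *msgn1*-line samples were below all wild-type samples, a mean difference of -0.36 on the log2 scale (exact two-sided permutation p = 0.1, the smallest that 3 samples against 3 allow). The *tbx16* line overlapped wild type, with replicate 3 lowest of all 9 samples, and differed by -0.29 (exact permutation p = 0.4). The *tbx16* and *msgn1* lines differed by 0.070 (exact permutation p = 0.9), which turned to -0.062 without *tbx16*-line replicate 2. With 3 samples against 3, this exact permutation test cannot place any of these ratios past a threshold of 0.05.

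*hes6* (also known as *her13.2*) encodes a partner of the Her proteins that does not oscillate, and its RNA is graded along the presomitic mesoderm under FGF signalling. *hes6* stood at 132, 160 and 246 CPM in the *tbx16* line, against 520, 450 and 456 CPM in the *msgn1* line and 389, 470 and 424 CPM in wild type. No *tbx16*-line sample reached any other sample, and the other genotypes overlapped. *hes6* fell to 41.9% of wild type in the *tbx16* line, a log2 fold change of -1.25 ± 0.20 (edgeR adjusted p = 0.00135), and it was lower than in the *msgn1* line by -1.41 ± 0.20 (adjusted p = 0.000648). Both calls held in 9 of 9 fits that left out a sample. The log2 fold change in the *msgn1* line was 0.15, with a 95% interval of -0.29 to 0.60 (adjusted p = 0.777), and -0.037 with scaling by library size alone.

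The ratio of *hes6* to *her7* counts was 2.05, 1.89 and 3.72 in the *tbx16* line, 5.53, 3.35 and 5.02 in the *msgn1* line and 3.38, 3.46 and 3.63 in wild type. *tbx16*-line replicates 1 and 2 were below every other sample, and replicate 3 was above every wild-type sample. On the log2 scale the mean differences were -0.52 for the *tbx16* line against wild type (exact permutation p = 0.4), 0.38 for the *msgn1* line against wild type (exact permutation p = 0.4) and -0.89 between the lines (exact permutation p = 0.2).

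*her11* is expressed in the presomitic mesoderm and, with its neighbour *her5*, at the midbrain-hindbrain boundary of the embryo. Of the 9 genes it changed by the largest factor in the *tbx16* line against wild type. *her11* stood at 2.65, 2.91 and 4.33 CPM in the *tbx16* line, at 19.7, 15.9 and 15.4 CPM in the *msgn1* line and at 13.2, 14.3 and 12.1 CPM in wild type. The 3 genotypes did not overlap at all, with the *tbx16* line lowest and the *msgn1* line highest. It fell to 24.9% of wild type in the *tbx16* line, a log2 fold change of -2.00 ± 0.21 (edgeR adjusted p = 9.77e-05). Between the lines the log2 fold change was -2.36 ± 0.21 (adjusted p = 3.84e-05). The difference of the *msgn1* line from wild type was 0.36 ± 0.20 and did not pass the test (adjusted p = 0.439).

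**Figure D2:**
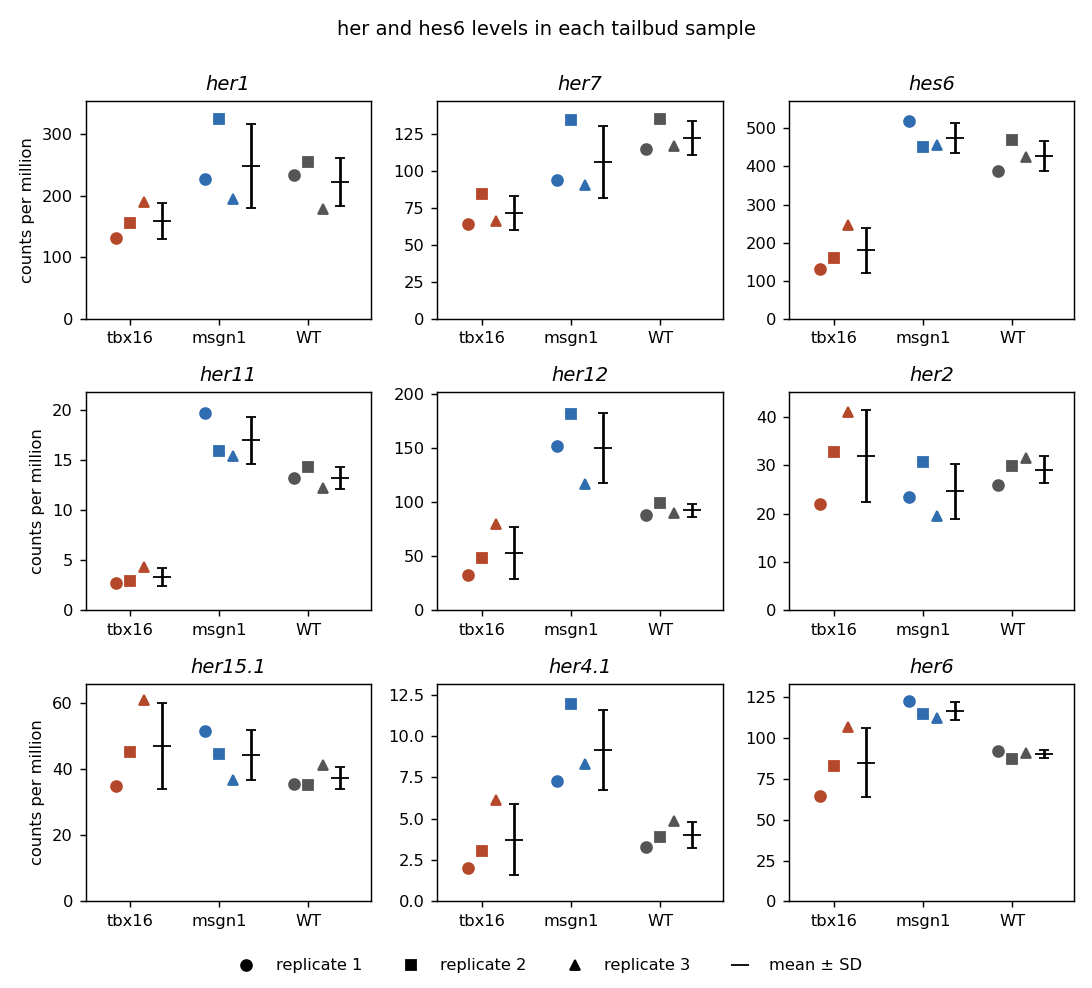
Normalised counts (CPM) of the 9 clock genes in each of the 9 tailbud samples, the *tbx16* line in red, the *msgn1* line in blue and wild type in grey, with bars for mean ± SD (n = 3). For *her7*, *hes6*, *her11* and *her12* every *tbx16*-line sample lies below every wild-type sample, and for *her11*, *her12*, *her4.1* and *her6* every *msgn1*-line sample lies above every wild-type sample. Of all genes tested, 52.8% separated the *tbx16* line from wild type in this way and 18.6% separated the *msgn1* line from wild type, in either direction.

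*her12*, *her2*, *her15.1* and *her4.1* are related to mammalian *Hes5*, and their expression depends on Notch signalling in several tissues. *her12* stood at 32.1, 48.1 and 79.2 CPM in the *tbx16* line, at 152, 181 and 116 CPM in the *msgn1* line and at 88.1, 99.4 and 89.8 CPM in wild type. Again no genotype overlapped another, with wild type between the lines. Neither difference from wild type passed the test: the log2 fold change was -0.80 ± 0.28 in the *tbx16* line (edgeR adjusted p = 0.0511) and 0.70 ± 0.28 in the *msgn1* line (adjusted p = 0.303). Between the lines *her12* was lower in the *tbx16* line by -1.50 ± 0.28 (adjusted p = 0.0027), in 9 of 9 fits that left out a sample. The difference between the *tbx16* line and wild type lay close to the threshold and was called under 6 of 18 alternatives, among them DESeq2 (adjusted p = 0.0124) and the fit without *tbx16*-line replicate 3 (-1.21, adjusted p = 0.00479).

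*her4.1* reached 2.00, 3.07 and 6.11 CPM in the *tbx16* line, 7.30, 11.9 and 8.29 CPM in the *msgn1* line and 3.28, 3.88 and 4.84 CPM in wild type. Every *msgn1*-line sample was above all 6 others, and the *tbx16* line spread across the whole wild-type range. The log2 fold change in the *msgn1* line against wild type was 1.20 ± 0.37, with an unadjusted p of 0.00906 and an adjusted p of 0.219 in edgeR. In the *tbx16* line against wild type it was -0.10 ± 0.37 (adjusted p = 0.86), a direction that turned to 0.025 with scaling by library size alone. Between the lines *her4.1* was lower in the *tbx16* line by -1.30 ± 0.37 (adjusted p = 0.0202), a call lost in 3 of the 9 fits that left out a sample. The table has near-identical *her4* copies among which reads may be split, so the value of this single entry is uncertain. With all *her4* entries summed, the log2 fold change was 0.45 in the *tbx16* line against wild type (adjusted p = 0.185) and -0.56 between the lines (adjusted p = 0.0901).

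*her2* and *her15.1* are cyclic genes that lie next to each other. *her2* stood at 21.9, 32.7 and 41.0 CPM in the *tbx16* line, 23.4, 30.8 and 19.6 CPM in the *msgn1* line and 26.0, 29.8 and 31.5 CPM in wild type. *her15.1* stood at 34.9, 45.2 and 60.8 CPM in the *tbx16* line, 51.6, 44.7 and 36.7 CPM in the *msgn1* line and 35.4, 35.2 and 41.1 CPM in wild type. For both genes all genotypes overlapped, and neither passed the test in any of the 3 comparisons. The 95% interval for the *tbx16* line against wild type was -0.37 to 0.64 for *her2* and -0.10 to 0.77 for *her15.1*. For the *msgn1* line against wild type it was -0.75 to 0.26 for *her2* and -0.18 to 0.69 for *her15.1*. *her15.1* has a near-identical neighbour, *her15.2*, and a read from either copy may have been counted for the other.

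*her6*, related to mammalian *Hes1*, is expressed in the presomitic mesoderm and in neural tissue. It stood at 64.6, 83.2 and 107 CPM in the *tbx16* line, at 123, 115 and 112 CPM in the *msgn1* line and at 92.1, 87.1 and 91.1 CPM in wild type. The *msgn1* line lay above all other samples, and the *tbx16*-line samples fell on both sides of wild type. The log2 fold change was -0.09 ± 0.16 in the *tbx16* line against wild type (edgeR adjusted p = 0.71) and turned to 0.054 with scaling by library size alone. It was 0.37 ± 0.16 in the *msgn1* line against wild type (adjusted p = 0.323). Between the lines it was -0.46 ± 0.16 (adjusted p = 0.0396), and this call held in 1 of the 9 fits that left out a sample.

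By overlap alone, 4 of the 9 genes separated all *tbx16*-line samples from all wild-type samples, where 52.8% of all genes did so. The *msgn1* line and wild type were separated for 4 of the 9, all higher in the *msgn1* line, against 18.6% of all genes. The *tbx16* line and the *msgn1* line were separated for 7 of the 9, against 51.1% of all genes.

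Within the *tbx16* line, the clock genes of a sample deviated from their means together. Replicate 1 was the lowest of its genotype for 9 of the 9 genes, whereas 38.3% of all genes were lowest there. Replicate 3 was the highest for 8 of the 9, with *her7* the exception, and 30.9% of all genes were highest there. The median deviation of the 9 genes from their genotype mean was -0.39 in replicate 1 and 0.41 in replicate 3 on the log2 scale, while that of all genes was close to 0 in both. The summed level of the 9 genes was 484, 616 and 800 CPM in the *tbx16* line. It was 1218, 1309 and 1049 CPM in the *msgn1* line and 996, 1130 and 990 CPM in wild type. This order of replicates in the *tbx16* line was not particular to the clock genes. The other *her*, *hes* and *hey* genes described below summed to 183, 233 and 294 CPM there. The presomitic mesoderm and segment boundary genes, *tbx16* included, summed to 2212, 2589 and 3064 CPM. The Notch pathway genes did not follow that order, at 2074, 1984 and 2714 CPM. In the *msgn1* line, replicate 3 was the lowest for 7 of the 9 clock genes (31.6% of all genes) and replicate 2 the highest for 5 (36.7%). In wild type replicate 2 was the highest for 5 (33.3% of all genes) and replicate 1 the lowest for 5 (28.3%).

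**Figure D3:**
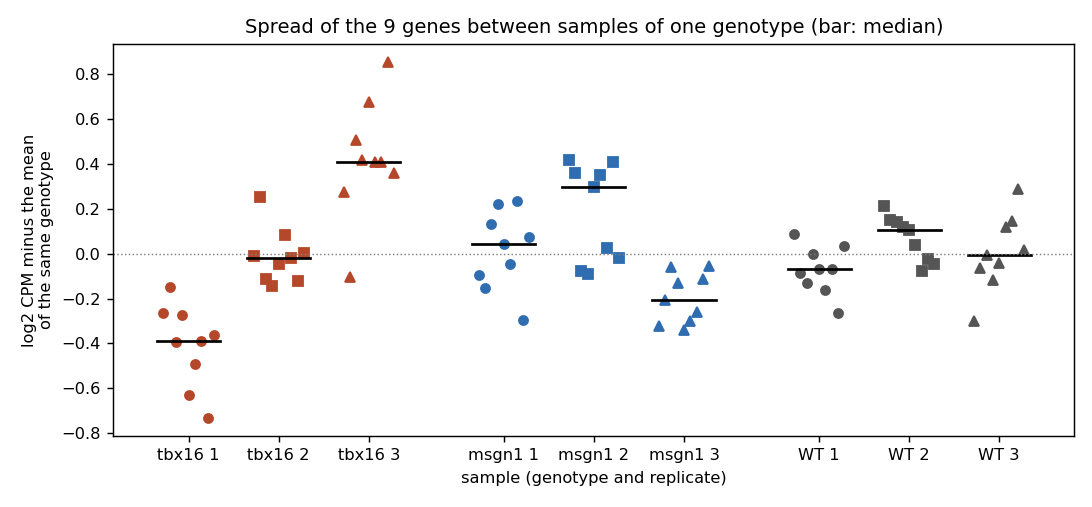
Log2 level of each of the 9 clock genes in a sample minus its mean over the samples of the same genotype, 1 point per gene, with a bar at the median. All points of *tbx16*-line replicate 1 lie below 0 with a median of -0.39, and 8 of 9 points of replicate 3 lie above 0 with a median of 0.41.

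Other quantities are given beside this spread, whether or not they followed it. *tbx16* itself stood at 836, 976 and 564 CPM in *tbx16*-line replicates 1, 2 and 3, and its part in this spread was not tested. The summed level of the somite and muscle markers, of which 7 of 8 were tested, was 540, 789 and 975 CPM in the *tbx16* line, against 1570, 1352 and 1212 CPM in the *msgn1* line and 1263, 1244 and 1047 CPM in wild type. *tnnc1b* was the marker not tested, listed at a mean of 0 CPM in the *tbx16* line and wild type. Of the 7, only *acta1a* was called against wild type in the *tbx16* line (-1.49, edgeR adjusted p = 0.00161). Neural markers summed to 191, 197 and 269 CPM in the *tbx16* line, 394, 435 and 363 CPM in the *msgn1* line and 569, 569 and 589 CPM in wild type. Relative to wild type, 8 of the 11 neural marker entries were lower and 1 was higher in the *tbx16* line, with a list median of -1.71, and *sox19a*, a SoxB1 factor, was the 1 entry lower in the *msgn1* line (log2 fold change -0.78, adjusted p = 0.0463). Blood and vessel markers summed to 457, 583 and 762 CPM in the *tbx16* line. They summed to 309, 304 and 226 CPM in the *msgn1* line and 343, 340 and 291 CPM in wild type. In the *tbx16* line the somite and muscle, neural, and blood and vessel sums all had the same order of replicates as the summed clock genes. The notochord and epidermal sums given below did not. Of the 5 blood and vessel markers, 2 were higher and 1 was lower in the *tbx16* line than in wild type. In the *msgn1* line edgeR called 0 of them, with 2 at an unadjusted p under 0.05, and DESeq2 called 0. *etv2*, a regulator of vessel and blood precursors, was higher in the *tbx16* line (log2 fold change 1.87, edgeR adjusted p = 0.000751). The other marker called higher was *tal1* (0.84), and *fli1a* was the lower one (-1.15, edgeR adjusted p = 0.000322). The blood and vessel sum hides this split, because *etv2* alone averaged 262 CPM in the *tbx16* line and 71.7 CPM in wild type. Notochord markers summed to 766, 957 and 907 CPM in the *tbx16* line, 990, 1197 and 842 CPM in the *msgn1* line and 1178, 967 and 1194 CPM in wild type. In the *tbx16* line 3 of the 5 were lower and 1 was higher than wild type, *noto* (-3.79) and *shha* (-2.43) among the lower ones, and *noto* was the 1 notochord marker called in the *msgn1* line (-0.80, edgeR adjusted p = 0.0368). Epidermal markers summed to 4471, 7689 and 5250 CPM in the *tbx16* line, between 2816 and 9761 CPM in the *msgn1* line and between 2642 and 9666 CPM in wild type. Of the 5 markers, 2 were lower in the *tbx16* line than in wild type, *tp63* (-1.33, edgeR adjusted p = 0.000162) and *epcam* (-0.65, adjusted p = 0.0462). *tp63*, a regulator of basal epidermis, was also lower than wild type in the *msgn1* line (-1.04, edgeR adjusted p = 0.011), where no clock gene passed the test. Against wild type, the *tbx16*-line calls made up 14.3% of somite and muscle, 81.8% of neural and 60% of blood and vessel entries. They made up 80% of notochord and 40% of epidermal entries, against 30.7% of all genes. In the *msgn1* line 1 entry was called in each of the neural, notochord and epidermal lists, which is 9.09%, 20% and 20% of them. Of the somite and muscle entries and of the blood and vessel entries 0 were called, and of all genes 0.854%. Shares that rest on 1 entry cannot be read as an excess. Several *her* genes are also expressed in neural tissue, and the part of these markers in the differences of the clock genes was not tested.

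The rest of the *her*, *hes* and *hey* family comprised 17 entries under 16 names, of which 12 passed the filter. Of the 12, 5 fell and 1 rose in the *tbx16* line relative to wild type, with a list median of -0.25. These 6 were 50% of the entries tested, against 30.7% of all genes. *her5*, the neighbour of *her11*, fell the most (-3.15 ± 0.42, edgeR adjusted p = 0.00046), to 14, 6 and 20 raw counts against 115, 81 and 108 in wild type. The others that fell were *her13* (-2.46), *her3* (-2.16), a neural gene, *her8a* (-1.91) and *her9* (-0.77). *her9* is related to *her6*, and its 29.3, 33.3 and 34.6 CPM in the *tbx16* line stood clear of 53.0, 59.6 and 53.0 CPM in wild type. The entry that rose was the less counted of those carrying the name *her4.2* (0.93 ± 0.24, adjusted p = 0.0147), which is subject to the same uncertainty as *her4.1*. None of the 12 was called higher without wild-type replicate 1 or without *tbx16*-line replicate 3, and 3 were without *tbx16*-line replicate 1. In the *msgn1* line edgeR called 0 of the 12 against wild type, with 3 at an unadjusted p under 0.05, while DESeq2 called 3 higher: *her13*, the more counted *her4.2* entry and *her4.4*. Their log2 fold changes were 1.24, 1.10 and 1.11. Over all genes, DESeq2 called 703 of 31956 entries in this comparison, where edgeR called 170 of 19914. Between the lines 5 of the 12 were lower in the *tbx16* line and 0 higher, and 8 passed at an unadjusted p under 0.05. The 5 were 41.7% of the entries tested, close to the 38.3% called among all genes. With scaling by library size alone 5 were lower and 3 higher.

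Of 14 genes of the Notch pathway, 5 fell and 0 rose in the *tbx16* line relative to wild type, with a list median of -0.20. These 5 were 35.7% of the list, close to the 30.7% called among all genes tested. Scaling by library size alone kept their direction, but *dlb* and *nrarpa* then missed the threshold. The glycosyltransferase gene *lfng*, which modifies Notch receptors, changed most: it stood at 21.8, 20.8 and 31.2 CPM in the *tbx16* line, 92.9, 96.5 and 93.8 CPM in the *msgn1* line and 153, 144 and 150 CPM in wild type. The genotypes did not overlap. The log2 fold change was -2.60 ± 0.15 in the *tbx16* line (edgeR adjusted p = 4.02e-06) and -0.66 ± 0.14 in the *msgn1* line, where it missed the threshold in edgeR (adjusted p = 0.0703) and passed in DESeq2 (adjusted p = 0.00148). The receptor genes *notch3* (-2.29) and *notch1b* (-1.90), the ligand gene *dlb* (-0.52) and the feedback gene *nrarpa* (-0.49) also fell in the *tbx16* line. Of the other Delta ligand genes, *dla*, *dlc* and *dld* were not called against wild type in either line. *dla* had a log2 fold change of -0.10 in the *tbx16* line and 0.44 in the *msgn1* line, and was lower in the *tbx16* line than in the *msgn1* line (-0.54, edgeR adjusted p = 0.0108). *dlc*, which cycles, had a log2 fold change of -0.16 in the *tbx16* line and -0.17 in the *msgn1* line, and *dld* had 0.41 and 0.26. In the *msgn1* line edgeR called 0 of the 14, with 3 at an unadjusted p under 0.05. DESeq2 called 1 of the 14, and 703 of all 31956 entries. Between the lines 7 were lower in the *tbx16* line and 1, *rbpja*, which encodes the DNA-binding partner of Notch, was higher (0.29). Together they were 57.1% of the list, against 38.3% of all genes. No gene of the list was called higher in 7 of the 9 fits that left out 1 sample.

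**Figure D4:**
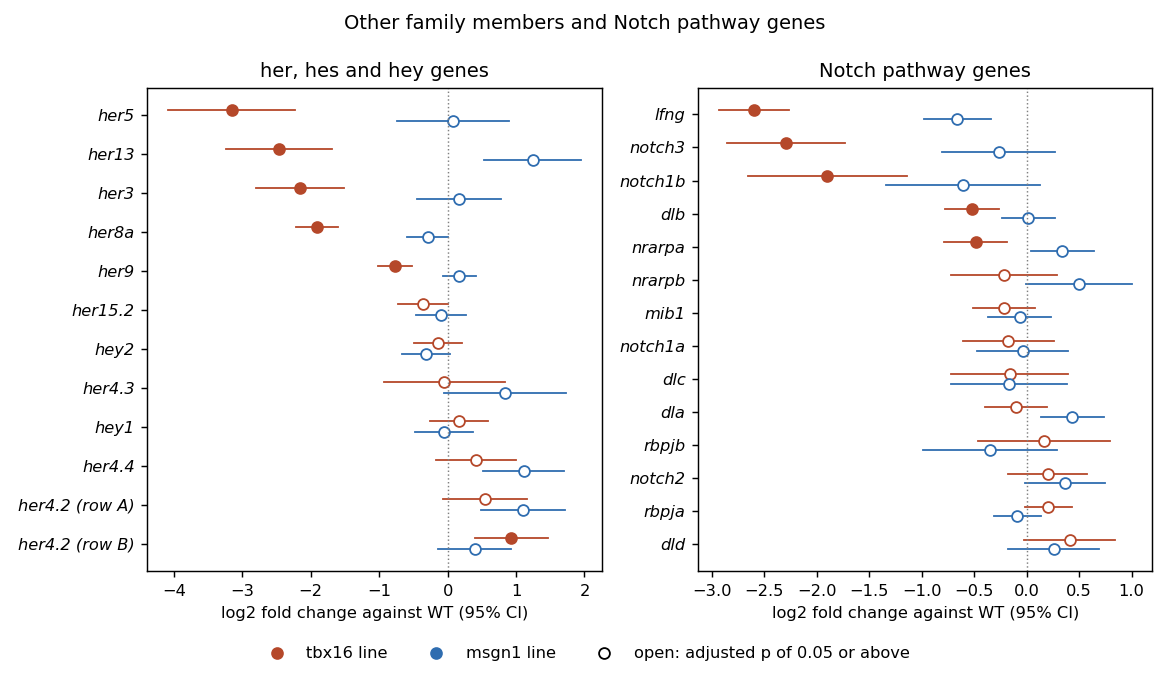
Log2 fold changes against wild type, with 95% confidence intervals, of the 12 other *her*, *hes* and *hey* entries tested and of 14 Notch pathway genes, the *tbx16* line in red above the *msgn1* line in blue. Filled points have an edgeR adjusted p under 0.05, and rows A and B are the more and the less counted entry named *her4.2*. In the *tbx16* line 5 family entries and 5 Notch genes are filled to the left of 0 and 1 family entry to the right, and no *msgn1*-line point is filled. Of all genes tested, 30.7% were called in the *tbx16* line and 0.854% in the *msgn1* line.

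Genes of the presomitic mesoderm and of the segment boundary did not move in 1 direction. In the *tbx16* line 6 of 13 were lower and 3 higher than wild type, the induced *tbx16* among the higher ones, with a list median of -0.51. Together they were 69.2% of the list, against 30.7% of all genes tested. *tbx6*, a T-box activator of clock and boundary genes, was lower (-1.70, edgeR adjusted p = 0.00141), as were *tbx16l* (-1.47), *mespaa* (-1.45), *msgn1* (-0.75) and the progenitor genes *tbxta* (-1.73) and *fgf8a* (-2.03). *mespba* (1.39) and *ripply2* (0.88), which mark and set the next segment boundary, were higher. In the *msgn1* line the induced *msgn1* was the 1 gene of the 13 called in edgeR (1.19, adjusted p = 0.0262). It made up 7.69% of the list, against 0.854% of all genes.

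For 4 of the clock genes the most similar patterns over the 9 samples were looked up among 13540 genes with a mean count of at least 100. Likeness was the root mean square (RMS) difference in log2 CPM after subtracting each gene's wild-type mean, and a smaller value means more alike. Nearest to *hes6* were *cdx4* (0.152), *wif1* (0.163) and *slc16a9b* (0.165), where the median gene differed by 0.847. Nearest to *her7* were *gnpnat1* (0.0945), *hagh* (0.116) and *rflnb* (0.140), against a median of 0.605. *her11* was closest to *foxi3a* (0.148), *lsp1a* (0.161) and *hsd17b2* (0.192), against a median of 1.23. *her1* was closest to *zgc:154055* (0.130), *trmt1l* (0.145) and *CU855889.2* (0.162), against a median of 0.514. No other clock gene was among the 3 nearest of these 4.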

How the data were processed

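RNA from 9 samples of 10 pooled zebrafish tailbuds (3 of wild type and 3 of each transgenic line) was sequenced with an mRNA library kit. The authors trimmed reads with Trim Galore 0.5.0, aligned them to GRCz11 with HISAT2 2.1.0, used StringTie for quantification and deposited a table of raw counts, whole numbers with no scaling. The release of the annotation, the strand setting and the treatment of reads shared by near-identical copies are not given in the sources used here. Groups and replicate numbers came from the sample labels, and 0 columns were left unused. Of 32020 entries, 64 with a blank name (0.0820% to 0.101% of counts) were left out of library sizes and tests.

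Tests ran in R 4.3.3 with limma 3.58.1 and edgeR 4.0.16. The 9 samples entered 1 fit with a coefficient for each genotype, TMM scaling, the filterByExpr filter (19914 genes), the quasi-likelihood F-test and Benjamini-Hochberg adjustment over all genes tested, with a threshold of 0.05. The standard error was the absolute log2 fold change divided by the square root of F, and 95% intervals used the degrees of freedom of that test. Ratios of 2 genes were compared with an exact two-sided permutation test. Python 3.11.15, pandas 2.3.3 and matplotlib 3.10.9 were used for tables and figures. The fits were tested on simulated data. The squared differences between replicates of a genotype were 18.6 to 90.0 times the counting variance (chi-square per gene), so none was the same library again.

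The 9 genes and the other lists were chosen with earlier results of these data known. All 9 were named. Of the lists, genes called in at least 1 comparison could be named, and not all of them were. Other listed genes (*dlc*, *dld*, *tnnc1b*, *her4.4*, *her8.2* and *hes2.2*) were named after their values were seen. The nearest patterns are the 3 genes with the smallest RMS difference. The alternatives were RLE size factors, library size alone, DESeq2 1.42.0, no filter, a minimum of 10 counts in all samples, fits of 2 genotypes alone, a replicate block, summed paralog entries, a 1.5-fold threshold, 1 count added to the ratios and leaving out each sample. For the family, Notch and presomitic mesoderm lists, the scalings and the left-out samples were added after seeing the data. Gene names and neighbours were taken from the RefSeq table of GRCz12tu, whose coordinates were used only to find the genes that lie between neighbours.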

Additional observations from a re-analysis of the deposited data

How the results depend on the processing

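The calls of *her7*, *her11* and *hes6* in the *tbx16* line against wild type held under all 18 alternatives, as did those of *her11*, *her12* and *hes6* between the lines, and no clock gene was called in the *msgn1* line against wild type under any. The count in the *tbx16* line against wild type was 3 to 4 without 1 sample and 5 in the fit of the 2 groups alone, which added *her1* and *her12*. Between the lines it was 3 with library size alone and 3 to 6 without 1 sample, with 3 to 6 lower and 0 to 1 higher. Without *msgn1*-line replicate 2 the 3 were *her11*, *her12* and *hes6*, to which *her2*, higher, was added without *tbx16*-line replicate 1 and *her7* without *tbx16*-line replicate 2. Over all genes, the *tbx16* line against wild type gave 7273 calls of 19557 in the fit of the 2 groups alone. Without 1 sample it gave 3968 of 20434 to 6644 of 20480. Between the lines, 8272 of 19914 genes were called with library size alone, and 5640 of 20288 to 8010 of 20480 without 1 sample.

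Library size alone moved the median log2 fold change of all genes to 0.18 for the *tbx16* line and -0.20 for the *msgn1* line against wild type and 0.38 between the lines. Log2 fold changes that turned with that scaling were *her4.1* (0.025) and *her6* (0.054) in the *tbx16* line and *hes6* (-0.037) in the *msgn1* line, each against wild type, and relative to the shifted median they were -0.15, -0.12 and 0.16. With paralog entries summed, *her4.1* turned to 0.45 in the *tbx16* line against wild type and *her15.1* to -0.036 between the lines. Without 1 sample the range was -0.66 to 0.20 for *her4.1*, -0.29 to 0.084 for *her6* and -0.091 to 0.35 for *her2* in the *tbx16* line, and -0.080 to 0.31 for *her1* in the *msgn1* line, each against wild type, and -0.15 to 0.27 for *her15.1* between the lines. The samples whose removal turned them were wild-type replicate 3 and *tbx16*-line replicates 1 and 2 for *her4.1*, *tbx16*-line replicate 1 for *her6*, *tbx16*-line replicate 3 for *her2*, *msgn1*-line replicate 2 for *her1* and replicate 3 of either line for *her15.1*. The ratio of *her7* to *her1* between the lines ranged from -0.062 to 0.26 without 1 sample. The cause was not tested.

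Over all genes, the *msgn1* line against wild type gave 170 calls in edgeR, 703 in DESeq2, 85 with the replicate block and 37 to 1198 without 1 sample, the highest without *msgn1*-line replicate 2. The share of lower genes among these calls was 58.2%, and 77% with library size alone. DESeq2 counts differed by more than 1.5 times for the *her*, *hes* and *hey* family (3 against 0), the Notch genes (1 against 0) and the presomitic mesoderm genes (2 against 1) in the *msgn1* line against wild type, and between the lines for the somite and muscle markers (2 against 1) and the epidermal markers (1 against 0). With library size alone the counts were 8 against 5 for the family between the lines, 3 against 5 for the Notch genes in the *tbx16* line, 1 against 0 for them in the *msgn1* line and 4 against 8 between the lines, and 2 against 1 for the presomitic mesoderm genes in the *msgn1* line. Without 1 sample, that line gave 0 to 1 for the family and for the Notch genes and 0 to 2 for the presomitic mesoderm genes.

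Under the replicate block, 3 clock genes were called in the *tbx16* line against wild type, 0 in the *msgn1* line and 6 between the lines, where *her6* was lost (-0.48, edgeR adjusted p = 0.0505). No label or method says whether same-numbered samples shared a clutch. The mean of the genotype was subtracted from each gene's log2 CPM, and these deviations were correlated between same-numbered samples over all genes tested. The correlations of deviations were -0.04, 0.12 and -0.07 for the *tbx16* line and wild type. They were 0.10, 0.02 and 0.40 for the *msgn1* line and wild type, and -0.12, 0.07 and -0.06 for the 2 lines. Not every sample correlated best with its number. Deviations within a genotype cancel out for each gene, so these correlations are not independent of each other. With 3 samples a genotype, differences as small as those of *her2* and *her15.1* cannot be told from none.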

Other observations

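Among the 9 clock genes themselves, likeness over the 9 samples did not follow gene neighbourhood alone. As a description, the pair with the smallest RMS difference of log2 CPM, centred on wild type, was *her15.1* and *her6* (0.274), followed by the neighbours *her1* and *her7* (0.332). The neighbours *her2* and *her15.1* differed by 0.353, and *her12* and *hes6*, which are not neighbours in the list looked up, by 0.425. The most unlike pair was *her11* and *her15.1* (1.35). All of these points share libraries and depth.

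Of the *her*, *hes* and *hey* entries that did not pass the filter, *her8.2* averaged 0.0536 CPM in the *tbx16* line, 0.109 CPM in the *msgn1* line and 0.111 CPM in wild type, too few counts to compare. *hes2.2* had 0 raw counts in each *tbx16*-line sample, 0, 16 and 6 in the *msgn1* line and 10, 11 and 9 in wild type. It was too low for the edgeR test, while DESeq2 gave an adjusted p of 0.00473 for the *tbx16* line against wild type and 0.00679 between the lines, and at these counts no fold is given.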
